A study of Mus with 6 samples.

Results

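The genes examined here encode megakaryocyte and platelet surface glycoproteins and one platelet chemokine: Gp9, Gp5, Gp1ba, Gp1bb, Pf4, Itga2b and Itgb3. They were chosen as a family by name, and every array probe that the platform annotation assigns to one of them was read. Of these 7 genes, 6 had such a probe, out of 19057 genes with a probe on the array. Itga2b had 2 probes and the other genes 1 each, which gives 7 probes among 45281. No probe listed for Gp1ba was used here.

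RNA came from leukaemic cells of mice with chronic myeloid leukaemia (CML) induced by the p210 form of BCR-ABL, the fusion kinase that drives this disease. In 3 samples the leukaemia was Klf4-deficient and in 3 it was wild type (WT), all on a C57BL/6 background and all taken from bone marrow 14 days after transplantation. The cells had been sorted as green fluorescent, lineage negative, Sca-1 positive and c-Kit positive (LSK), the phenotype of stem and early progenitor cells in which leukaemia stem cells are sought. Klf4 encodes a zinc finger transcription factor. All samples of both groups thus carried BCR-ABL. The labels give neither the way Klf4 was removed, nor the age of the mice, nor whether replicates are different animals, so p-values measure only the spread between these samples.

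Megakaryocytes are the bone marrow cells that shed platelets. On both, GPIb alpha, GPIb beta, GPIX and GPV form the receptor for von Willebrand factor, while integrin alphaIIb (CD41) pairs with integrin beta3 (CD61) to bind fibrinogen. CD41 also appears on early haematopoietic stem and progenitor cells, and platelet factor 4, the product of Pf4, is stored in alpha granules. Several of these genes are used to recognise stem cells primed towards platelet production.

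Values are deposited linear intensities, background subtracted and already on one scale, so that they can be negative. Intensities under 32 were set to 32, here called the floor, before taking log2. Each array had 7082 to 7214 probes above the floor. WT replicate 3 stood apart from all others: it correlated with them at Pearson r = 0.29 to 0.30 across the tested probes, against 0.66 to 0.72 among the other 5 arrays, as a description across probes. Klf4 itself, on 3 probes, exceeded the floor once in 18 readings, at 51.9 in WT replicate 2, so it gave no check of the genotype labels. Results that rest on WT replicate 3 are given with and without it.

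**Figure D1:**
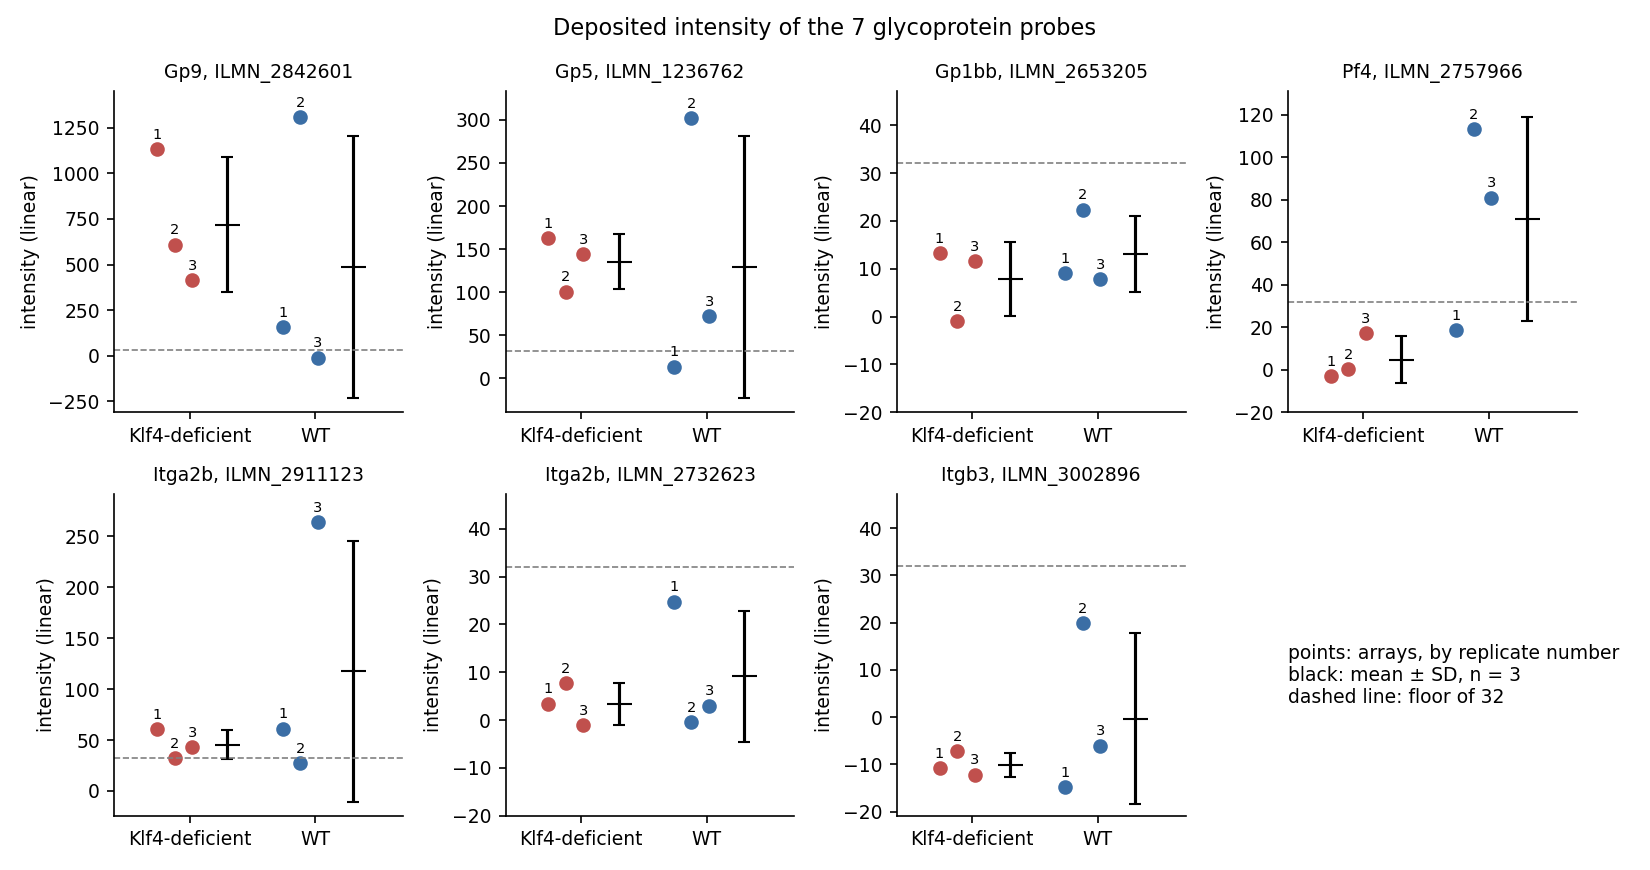
Deposited intensity (linear, y axes) of the 7 probes, with Klf4-deficient arrays left of WT arrays. Points are single arrays numbered by replicate, black marks are the mean and SD of 3 arrays, and the dashed line is the floor of 32. Gp9, Gp5, Pf4 and 1 Itga2b probe rose above the floor, and the other 3 probes did not on any array.

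Gp9, Gp5 and 1 of the Itga2b probes were above the floor on all Klf4-deficient arrays and on 2 of the 3 WT arrays. Pf4 was above it only on WT arrays. The WT arrays disagreed with each other on each of these genes, and no difference between Klf4-deficient and WT passed the test.

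In the von Willebrand factor receptor complex, GPIX is the small subunit that the complex needs to reach the cell surface. Its gene Gp9 (ILMN_2842601) read 1132.3, 607.9 and 415.6 across Klf4-deficient arrays, against 157.8, 1307.8 and -9.7 in WT arrays. The groups overlapped, because WT replicate 2 was the highest of the 6 arrays while WT replicates 1 and 3 were the lowest. The mean intensity was 718.6 ± 371 in Klf4-deficient and 485.3 ± 717 in WT arrays (SD, n = 3 each). On the log2 scale the difference was 1.81 ± 1.41 (SE; 95% interval -1.77 to 5.40), or 3.51-fold, with a limma adjusted p of 0.71. It was 0.54 without WT replicate 3 and 3.21 without WT replicate 2, so the size depends on which WT arrays are counted. Here and for the other members, RNA of a whole sorted fraction cannot tell fewer expressing cells from less RNA per cell.

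GPV is the subunit cleaved by thrombin during platelet activation. Its gene Gp5 (ILMN_1236762) read 162.3, 100.4 and 143.8 across Klf4-deficient arrays, against 13.5, 302 and 72.3 in WT arrays. The Klf4-deficient values lay close together and inside the WT range, and WT replicate 2 was again the highest array. Their means were nearly equal, at 135.5 ± 31.8 in Klf4-deficient and 129.3 ± 152 in WT arrays (SD, n = 3 each). The log2 difference of 0.58 ± 0.86 (SE; 95% interval -1.60 to 2.77, limma adjusted p = 0.75) rests on WT replicate 1, which lay at the floor. Without that array it was -0.15, and without WT replicate 2 it was 1.47.

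GPIb beta is disulfide-linked to GPIb alpha, the subunit that binds von Willebrand factor. The Gp1bb probe (ILMN_2653205) read 13.2, -1 and 11.5 in Klf4-deficient and 9.1, 22.3 and 7.8 in WT arrays. It was not above the floor on any array and was not tested. So of the 3 subunits measured, Gp9 and Gp5 gave signal and Gp1bb did not, at the signal of these probes. Intensities of different probes are not on a common scale, so this says nothing of the proportions of the subunits.

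Platelet factor 4 is a CXC chemokine of alpha granules that binds heparin. Pf4 (ILMN_2757966) read -3.2, 0.3 and 17.2 across Klf4-deficient arrays, against 18.7, 113.1 and 81 in WT arrays. All Klf4-deficient arrays lay below the floor, as did WT replicate 1, while the other WT arrays were above it. As deposited the values did not overlap, but the gap between 17.2 and 18.7 lies below the floor, where values have no reliable order. On floored values, with WT replicate 1 also at the floor, the difference was -1.05 ± 0.50 (log2, SE; 95% interval -2.32 to 0.21), with a limma adjusted p of 0.71. It was -1.58 without WT replicate 1, -0.67 without WT replicate 2 and -0.91 without WT replicate 3. In that last fit only WT replicate 2 was above the floor. The floor itself matters: the difference was -1.76 with a floor of 16 and -0.39 with a floor of 64. Of all probes tested, 3.68% had no Klf4-deficient array and at least 2 WT arrays above the floor.

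Integrin alphaIIb is a surface marker of the megakaryocyte lineage that also appears on early stem and progenitor cells. The brighter Itga2b probe (ILMN_2911123) read 60.4, 32.4 and 43 across Klf4-deficient arrays, against 61.3, 27.2 and 264 in WT arrays. All Klf4-deficient values fell between those of WT replicates 2 and 1, and WT replicate 3 was the highest array. Mean intensity was 45.3 ± 14.1 in Klf4-deficient and 117.5 ± 128 in WT arrays (SD, n = 3 each). The log2 difference was -0.87 ± 0.83 (SE; 95% interval -2.99 to 1.24, limma adjusted p = 0.71), and it was -0.02 without WT replicate 3, the array that stood apart over all probes. The second Itga2b probe (ILMN_2732623) read 3.4, 7.7 and -1.1 in Klf4-deficient and 24.7, -0.4 and 3 in WT arrays. It stayed below the floor throughout and thus did not show the high value of WT replicate 3.

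Integrin beta3 pairs with alphaIIb on platelets and with the alphaV chain on other cells. The Itgb3 probe (ILMN_3002896) read -10.8, -7.2 and -12.2 across Klf4-deficient arrays, against -14.8, 19.9 and -6 in WT arrays. It too was below the floor on every array and was not tested. Of the integrin pair, only the alphaIIb chain was therefore measured above the floor, and by 1 of its 2 probes.

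**Figure D2:**
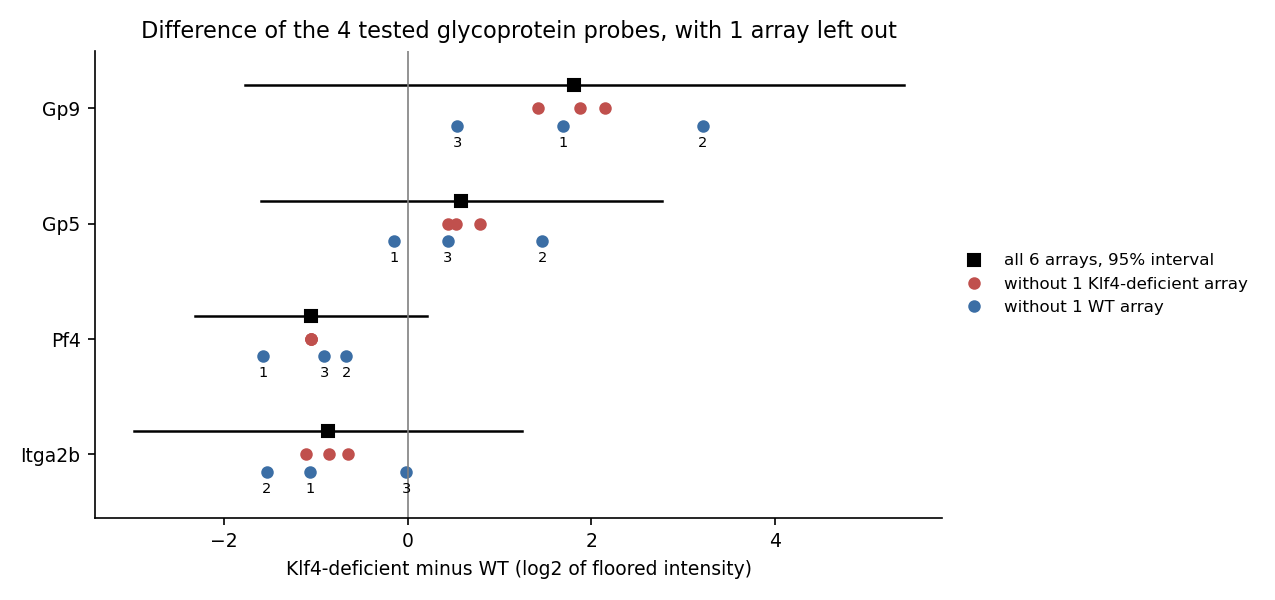
Difference between Klf4-deficient and WT arrays (log2 of floored intensity, x axis) for the 4 tested probes. Black squares with bars are the fit over all 6 arrays and its 95% interval, red points leave out 1 Klf4-deficient array, and blue points leave out the WT array with the printed replicate number. All 4 intervals include 0, and the values without a WT array spread further than those without a Klf4-deficient array, from 0.54 to 3.21 for Gp9.

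Of the 4 member probes that could be tested, limma called 0 at an adjusted p under 0.05, where it called 0 of 18270 tested probes (0%). At an unadjusted p under 0.05 it found 0 of the 4, against 371 or 2.03% of all tested probes, with 1.46% higher and 0.575% lower in Klf4-deficient arrays. That 0 depends on single WT arrays. Without WT replicate 2, the highest array for both genes, the unadjusted limma p was 0.019 for Gp9 and 0.034 for Gp5 (adjusted p 0.70 for each). In that fit 532 probes were higher and 277 lower at an unadjusted p under 0.05, of 17092 tested. WT replicate 2 held the only WT value of each gene that was not below all Klf4-deficient values. Leaving it out thus separates the groups, so these Gp9 and Gp5 p-values are no support for a difference. For Pf4 the unadjusted limma p was 0.0026 without WT replicate 1 (adjusted p 0.43), where 393 probes were higher and 298 lower of 17317. Leaving out that array sets floored Klf4-deficient values against only the high WT values of Pf4, so this p is no support for a difference. On floored values the groups were separate for 0 of the 4, against 564 or 3.09% of all. Differences were positive for Gp9 and Gp5 and negative for Pf4 and Itga2b, where 45.8% of all tested probes had a positive and 54.2% a negative difference. The 4 passed the filter through at least 1 array above the floor, and the other 3 probes did not pass. An exact two-sided permutation test on the deposited values gave p = 0.1 for Pf4, the smallest p that 3 against 3 arrays allow. It rests on the order of 17.2 and 18.7, both below the floor, where values have no reliable order. The other 6 probes gave exact p from 0.6 to 1. These p-values do not show that the genes are equal in both groups, since the 95% intervals were 2.53 to 7.17 log2 units wide.

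The spread within groups also differed. The SD over the 3 arrays of a group was larger in WT for all 4 tested members, as it was for 63.4% of all tested probes. Both counts include WT replicate 3. It was 0.73 in Klf4-deficient and 2.69 in WT arrays for Gp9, and 0.36 and 1.64 for Gp5 (log2). For Itga2b it was 0.45 in Klf4-deficient and 1.56 in WT arrays, and for Pf4 it was 0 and 0.94, the 0 being that of a group wholly at the floor. Without WT replicate 3 the WT SD was 2.16 for Gp9, 2.29 for Gp5, 1.29 for Pf4 and 0.66 for Itga2b. Each was still above the Klf4-deficient SD of its gene. The median WT SD over all tested probes was then 0.13, against 0.64 with that array and 0.31 in Klf4-deficient arrays. The 0.13 includes probes above the floor only on WT replicate 3, whose SD is then 0 by construction. Without that array 14950 probes would pass the filter. An SD over fewer arrays is also not directly comparable with one over 3, so the 0.13 is no measure of how well WT replicates agree. Whether the wide WT spread is particular to the family was not tested. From the lowest to the highest array, Gp9 ranged 2.72-fold in Klf4-deficient arrays and at least 40.9-fold in WT arrays, and Gp5 ranged 1.62-fold and at least 9.44-fold.

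The WT array without signal differed from gene to gene. Gp9 was above the floor on all arrays except WT replicate 3, a pattern of 7.99% of the tested probes. Gp5 was above it on all except WT replicate 1, as were 0.35% of probes, and Itga2b on all except WT replicate 2, as were 0.515%. WT replicate 2 was the highest array for Gp9, Gp5 and Pf4, where it was the highest for 15.7% of all tested probes. WT replicate 3 was the highest for Itga2b and for 29.2% of all tested probes. Gp9 and Gp5 thus shared their highest array but not their lowest, and Itga2b shared neither with them.

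The profiles of the 3 members above the floor on at least 4 arrays were set against those of 3444 other named probes that met the same condition. Likeness was the root mean square difference of centred log2 values over the 6 arrays, with smaller values closer. The closest to Gp9 were Larp4b, an RNA-binding protein, at 0.37, Tnfrsf10b, the TRAIL death receptor, at 0.49, and Adnp, a homeobox protein, at 0.50. Gp5 lay at 1.35 from Gp9 and ranked 697 by closeness, and Itga2b at 2.79 ranked 3144. The closest to Gp5 were Nmt1, an N-myristoyltransferase, at 0.31, the co-chaperone Dnajb6 at 0.36, and Zfpm2, a cofactor of GATA factors, at 0.37, while Gp9 ranked 1576.

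Larp4b (ILMN_2557387) read 1038.9, 380.6 and 268.4 in Klf4-deficient and 101.1, 609 and 3.8 in WT arrays, the same order of arrays as Gp9 except at the top, where Klf4-deficient replicate 1 exceeded WT replicate 2. The closest to Itga2b were Rexo1, an exonuclease family gene, at 0.14, Dennd5b at 0.23 and the methyltransferase Smyd2 at 0.25. Rexo1 (ILMN_2592554) shared the single high WT replicate 3 value, at 315.7. No other member was among the 3 closest profiles of a member.

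**Figure D3:**
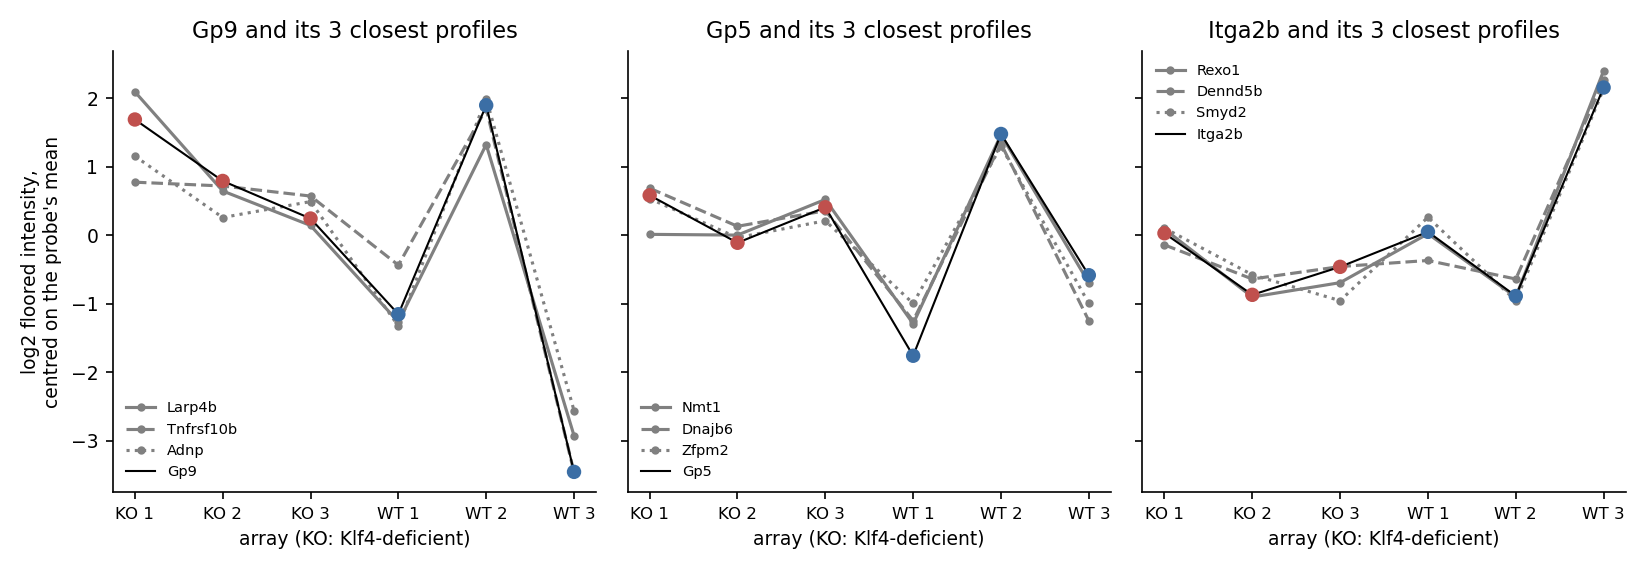
Profiles of Gp9, Gp5 and Itga2b over the 6 arrays (log2 floored intensity centred on each probe's mean, y axis), Klf4-deficient (KO) arrays in red and WT arrays in blue, each with its 3 closest profiles in grey. Gp9 and Gp5 peak in WT replicate 2 and Itga2b in WT replicate 3.

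The genes next to the members on the chromosome, by their order in the RefSeq annotation of GRCm38.p6, were read as a comparison by position. Atp13a3, a cation transporter that neighbours Gp5, read 102.7, 244 and 323.8 in Klf4-deficient and 27.3, 62.3 and 102.1 in WT arrays. Its difference of 1.77 ± 0.63 (log2, SE) had a limma adjusted p of 0.71. Septin5, beside Gp1bb, was above the floor only in WT replicate 3, at 38.2. Ppbp and Cxcl3, chemokine genes on either side of Pf4, were below the floor on all arrays. Fam171a2, beside Itga2b, read 525.4, 52.6 and 517.9 in Klf4-deficient and 96.3, 705 and -18.8 in WT arrays, so it was lowest in the WT array where Itga2b was highest.

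The rest of the megakaryocyte programme was read from lists of receptors, granule proteins, cytoskeletal proteins and transcription factors, each gene by its brightest probe. No gene of these lists was called by limma, and none had an unadjusted p under 0.05. Over all 10236 genes tested in this way, 43.5% were higher in Klf4-deficient arrays and the median difference was -0.10 (log2).

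Of 28 receptor and signalling genes, 25 had a probe and 14 were tested, 8 with a positive and 6 with a negative difference (median 0.08, log2). F2r, a thrombin receptor, read 462, 860.6 and 690.6 in Klf4-deficient and 349.2, 455.9 and 7.9 in WT arrays, a difference of 1.92 ± 1.10 (SE, adjusted p = 0.71) that was 0.70 without WT replicate 3. Its Klf4-deficient arrays all exceeded the WT arrays, as in 2.13% of all tested probes. P2ry1, a platelet ADP receptor, read 324, 117.2 and 337.3 in Klf4-deficient and 90, 173.9 and 210.4 in WT arrays, with overlap (0.65 ± 0.56, adjusted p = 0.71). The collagen receptor Gp6 and Mpig6b, an inhibitory platelet receptor, were below the floor on all arrays.

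Of 16 alpha granule and secreted protein genes, 13 had a probe and 5 were tested, 4 with a positive difference and 1 with a negative one (median 0.12). Mmrn1, multimerin of alpha granules, read 4044.3, 3244.3 and 3117 across Klf4-deficient arrays, against 3695.5, 653 and 521.8 in WT arrays. WT replicate 1 lay within the Klf4-deficient range and the other WT arrays far below it (1.67 ± 0.80, SE, adjusted p = 0.71), and a second Mmrn1 probe was below the floor throughout. Without WT replicate 1 the Mmrn1 difference was 2.56, without WT replicate 2 it was 1.31 and without WT replicate 3 it was 1.15. The mean over both Mmrn1 probes gave 0.84. Timp3, a metalloproteinase inhibitor, was above the floor only in WT replicate 1, at 91.5, so its difference of -0.51 ± 0.47 (log2, SE, adjusted p = 0.71) rests on that array. Vwf, the ligand of the GPIb complex, was below the floor on all arrays.

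Of 14 proplatelet cytoskeleton genes, 13 had a probe and 12 were tested, 6 in each direction (median -0.03). Was, an actin regulator, read 373.5, 120.3 and 380.1 in Klf4-deficient and 147.3, 130.4 and -6.1 in WT arrays (1.60 ± 0.80, SE, adjusted p = 0.71; 0.89 without WT replicate 3). Tpm4, a tropomyosin, read 32.7, 20.1 and 24.1 in Klf4-deficient and 30, 61.7 and 349 in WT arrays (-1.45 ± 0.91, SE, adjusted p = 0.71; -0.46 without WT replicate 3). A second Tpm4 probe was also lower in Klf4-deficient arrays, at -1.35 ± 0.75 (SE, adjusted p = 0.71), but there WT replicate 1 was high, at 235.2, and WT replicate 3 at -8.1. Tubb1, the megakaryocyte beta tubulin, exceeded the floor only in WT replicate 3, at 86.1.

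Of 18 transcription factor genes, 16 had a probe and 15 were tested, 8 with a positive and 7 with a negative difference (median 0.08). Lyl1, a basic helix-loop-helix factor related to Tal1, read 26.4, 17.3 and 19.8 across Klf4-deficient arrays, against 87.4, 47.4 and 327.8 in WT arrays. All WT arrays were above the floor and no Klf4-deficient array was, and the groups separated in that direction for 0.958% of all tested probes. The difference was -1.79 ± 0.74 (SE, adjusted p = 0.71), -1.01 without WT replicate 3 and -0.94 with a floor of 64. Ldb1, the adaptor of GATA1 and LMO2 complexes, read 199.7, 276.2 and 101.2 in Klf4-deficient and 148.3, 131 and 50 in WT arrays (0.84 ± 0.59, SE, adjusted p = 0.71; 0.35 without WT replicate 3). Further factors of the list were read outside the naming rule. Gata1, an activator of Gp9, Itga2b and Pf4 in megakaryocytes, read 10.5, 5.2 and 77.7 in Klf4-deficient and 20, 49.8 and 110.4 in WT arrays. Fli1, its ETS partner on these promoters, read 24.1, 84.6 and 257.7 in Klf4-deficient and 224.1, 36.2 and -6.7 in WT arrays. Runx1, a core haematopoietic factor, was above the floor only in WT replicate 2, at 74.3. Nfe2, a factor of platelet release, and Lmo2 were also highest in that array, at 166.5 and 717.8, as were 15.7% of all tested probes. Other factors of the list peaked elsewhere, among them Gata2 in WT replicate 1, Gata1 in WT replicate 3 and Fli1 in Klf4-deficient replicate 3.

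**Figure D4:**
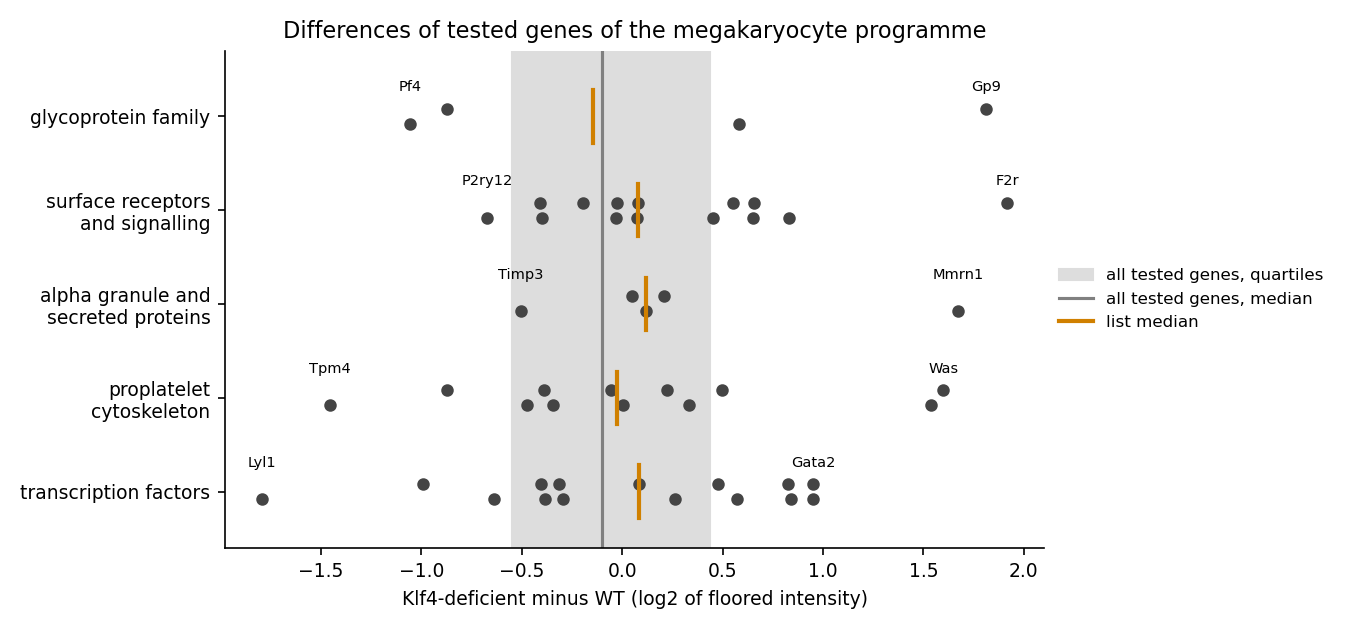
Difference between Klf4-deficient and WT arrays (log2 of floored intensity, x axis) for each tested gene of the glycoprotein family and of 4 lists of the megakaryocyte programme (rows). Orange bars are list medians, from -0.15 for the family to 0.12 for granule proteins, and the grey line and band are the median and quartiles of all 10236 tested genes, at -0.10 and from -0.55 to 0.44.

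Markers of cell types that the sort could hold were read in the same way, and limma called none. Of 11 megakaryocyte markers outside the family with a probe, 7 were below the floor on all arrays, among them Ppbp, Gp6, Treml1 and Vwf, and 4 were tested, 1 with a positive and 3 with a negative difference (median -0.33). Rasgrp2 reached 164.6 in Klf4-deficient replicate 3 and 246.4 in WT replicate 1, Selp 134.4 in Klf4-deficient replicate 1 and 118.6 in WT replicate 3, and P2ry12 129.5 in WT replicate 3. The summed intensity of the 11 was 19.6 to 213.5 in Klf4-deficient and 39 to 343.5 in WT arrays. The 7 were at background on the arrays where Gp9 and Gp5 were not, and the markers overlap the receptor, granule and cytoskeleton lists. Of 8 erythroid markers with a probe, 6 were tested, 5 with a positive difference, 1 of them, Alas2, at an unadjusted limma p of 0.00013 and an adjusted p of 0.59, and the sum was 2987.2 to 3825.8 in Klf4-deficient and 1389.4 to 3065.1 in WT arrays. Of 6 mast cell and basophil markers, 5 were tested, 4 with a positive difference (sum 2091 to 3125.4 in Klf4-deficient and 1199.9 to 2359.3 in WT arrays).

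Monocyte and macrophage markers gave 4 tested genes, all 4 with a negative difference, and a sum of 35.7 to 93.5 in Klf4-deficient and 58 to 604.5 in WT arrays, highest in WT replicate 3 and at most 182 in the other WT arrays. Neutrophil markers gave 3 positive and 4 negative differences, with sums of 2007.2 to 2985.7 in Klf4-deficient and 2099.1 to 7499.3 in WT arrays, also highest in WT replicate 3 and at most 3412.2 in the other WT arrays. Most of that highest sum was the brightest Mpo probe, at 7153.2 in WT replicate 3. The other Mpo probes read 1224.2, 13.6 and 137.9 there, so the sum does not show more neutrophil RNA in that array. B cell, T cell and endothelial markers were sparse, with sums of at most 315.9. Their part in the values of Itga2b and the other members was not tested. Of 10 stem and progenitor genes, 8 were tested, 3 with a positive and 5 with a negative difference. Kit, which encodes the sorted receptor c-Kit, gave 118.1, 7.3 and 63.1 in Klf4-deficient and 11.5, 17.4 and 381.5 in WT arrays, on its brightest probe, highest in the same array as Itga2b. Another Kit probe gave 67.6, 16.2 and -10.8 in Klf4-deficient and 12.1, 258.5 and -6.6 in WT arrays, highest in WT replicate 2 instead. No probe listed for Ly6a, which encodes Sca-1, was used here.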

How the data were processed

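The authors deposited linear intensities of 45281 probes on 6 one-colour Illumina mouse bead arrays, with 0 value columns left unused. A service laboratory prepared and scanned the arrays, per the labels' protocols. The submitters' processing notes name BeadStudio, without a version; its background and normalization settings are not given in the sources. The deposited intensities ran from -31 to 37007.2 and 45.3% to 45.6% of each array lay at or below 0, so background had been subtracted. No further normalization was applied.

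Probes were named by the platform annotation, with symbols updated by Entrez number through RefSeq: 34885 had 1 symbol, 18 several, and 10378 were not listed. Each of the 18270 probes above 32 on at least 1 array was tested on log2 of the intensity floored at 32, with limma 3.58.1 in R 4.3.3 (lmFit and eBayes; values read with data.table, version 1.17.8), Klf4-deficient minus WT, with Benjamini-Hochberg adjustment over all of them and a threshold of 0.05. Arrays carry no counts, so precision is limited by their number and by signal over background. Code was tested on simulated data.

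Groups and replicate numbers came from the sample titles. The members and lists were chosen with earlier results of these data known. Of each list of the megakaryocyte programme the 2 tested genes with the smallest p were named. Klf4, Kit, the members and the 3 closest profiles were named too. Marker lists are given as counts and sums, with Alas2, Mpo, Rasgrp2, Selp and P2ry12 named in addition. Genes named for chromosomal position, for lying below the floor or as regulators were chosen after their values were seen. Alternatives were other floors, an offset, filters, quantile normalization, trended eBayes, other probe summaries, a replicate block and each array left out. Neighbouring genes were taken from their order in the RefSeq gene list, whose header names GRCm38.p6. Probe sequences were not used here, and no coordinates are printed.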

Additional observations from a re-analysis of the deposited data

How the results depend on the processing

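No member probe was called by limma under any of the 16 alternatives, with adjusted p from 0.43 to 1. The count over all probes, 0 as reported, was 2 with a floor of 64, 1 with no filter and 1 with each gene's probes averaged, none of them a member. It stayed at 0 in every fit without 1 array (0 to 0), as did the counts of members and of list genes. The Gp9 and Itga2b differences kept their sign in all 16 alternatives, from 0.54 to 3.21 and from -1.54 to -0.02, and Pf4 in all 15 that tested it, from -1.76 to -0.39. Gp5 turned to -0.15 without WT replicate 1 and otherwise reached 1.47. The mean over both Itga2b probes gave -0.44.

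The list medians near 0 changed sign. The cytoskeleton median was 0.22 among probes above 32 on at least 3 arrays, 0.26 without WT replicate 1 and 0.20 without WT replicate 2. The transcription factor median was -0.11 among probes above 32 on at least 3 arrays, and with single arrays left out it lay between -0.29 (Klf4-deficient replicate 3) and 0.28 (WT replicate 1), with -0.02 for WT replicate 3. The 8 named list genes kept their sign wherever they were tested. The causes were not tested.

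Deviations of same-numbered arrays from their group means correlated at r = 0.03 to 0.04, and the numbers were not taken as pairs. The WT means included WT replicate 3, the array that stood apart, so these correlations do not show that pairing was absent. With the replicate number as a block, 0 probes were called, 254 higher and 108 lower at an unadjusted p under 0.05, against 266 and 105 without it, and 0 members were called (lowest adjusted p 0.75). Without WT replicate 3 the split was 180 higher and 352 lower. Signal is 1 limit: 3 of its 7 probes never rose above the floor, and 60.7% of all tested values lay at it.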
